A study of Mus musculus with 6 samples.

Results

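The genes described here are the activating transcription factor ATF4 with its response genes, and the carriers that move amino acids across cell membranes, measured in the mouse mammary carcinoma line 4T1. A list of 45 genes was taken, 19 of the ATF4 response and 26 carriers, and 44 of the 19938 genes of the array table belonged to it, since Pycr1 was not analysed here. Each gene was read from its brightest probe set among those annotated with 1 gene symbol. The control group was 3 dishes kept with the vehicle DMSO and the treated group 3 dishes kept with 500 nM TKI258, both for 16 h in medium with 10% serum. TKI258 is dovitinib, a kinase inhibitor that acts on receptors for FGF, VEGF and PDGF. All dishes held the same unmodified line, so the arrays describe 1 line at 1 dose and 1 time.

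When amino acids run short or the endoplasmic reticulum is stressed, kinases phosphorylate the initiation factor eIF2, general translation slows, and ATF4 is translated more efficiently from its own mRNA. ATF4 then activates genes for amino acid synthesis, transfer RNA charging and amino acid uptake, and the stress regulators CHOP (Ddit3), TRIB3 and CHAC1. Growth factor signalling through mTORC1 also raises ATF4 translation, and amino acids taken up or released from lysosomes in turn keep mTORC1 active. An array reads the mRNA alone, so ATF4 protein was not measured.

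ATF4 binds DNA with partners of the C/EBP family at a composite element whose core is TGATGNAA on either strand. This core was looked for in RefSeq windows of assembly GRCm38.p6 that reach from 250 bases before to 50 bases after each transcription start. It was present in 3.97% of 32851 windows and in those of 4.51% of 27025 genes. Of the listed genes 37 matched by symbol, the others being Cth, Slc1a5, Slc38a1, Slc43a3, Slc6a6, Slc7a2, Slc7a3 and Slc7a5, and 10 of the 37 (27.0%) held the core. The stretches below are shown because genes that carry the same letters near their start differed in the direction of their change. They are written 5′ to 3′ on the gene's own strand, with the match in capitals; TTGCATCA and TTACATCA are matches read on the opposite strand. A match is a run of letters and not a measured binding site.
Nupr1, chr7:126625562-126625591, gene on the minus strand: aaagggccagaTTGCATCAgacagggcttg
Slc1a4, chr11:20332699-20332728, gene on the minus strand: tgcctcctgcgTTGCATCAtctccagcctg
Slc7a7, chr14:54417927-54417956, gene on the minus strand: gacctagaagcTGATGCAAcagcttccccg
Trib3, chr2:152344028-152344057, gene on the minus strand: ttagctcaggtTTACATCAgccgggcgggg
Chac1, chr2:119351038-119351067, gene on the plus strand: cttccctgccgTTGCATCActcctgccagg
Vldlr, chr19:27216809-27216838, gene on the plus strand: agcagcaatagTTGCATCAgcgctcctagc
Asns, chr6:7693214-7693243, gene on the minus strand: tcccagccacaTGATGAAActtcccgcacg
Got1, chr19:43524689-43524718, gene on the minus strand: cattgcattggTTGCATCAtacaagcctcc
Slc7a11, chr3:50443643-50443689, gene on the minus strand: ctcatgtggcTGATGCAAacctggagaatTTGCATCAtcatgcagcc
The first base of the match lay 110 bases before the start in Nupr1, 4 in Slc1a4, 193 in Chac1, 200 in Vldlr, 23 in Asns and 102 in Got1, and at base 15 of the transcript in Trib3. Slc7a11 carried a pair of matches on opposite strands, 66 and 47 bases before the start. In Slc7a7, which has more than 1 annotated start, the match shown lay 1 base before one start and 243 bases before the other. A further match lay 141 bases before the start that the shown match precedes by 1 base. Pycr1 also held the core, 103 bases before its start. In the results that follow, Nupr1, Slc1a4, Slc7a7, Trib3 and Chac1 rose, Asns, Got1 and Slc7a11 fell, and Vldlr did not pass. Of the matched and measured genes without the core, 6 rose, 3 fell and 18 did not pass. Among all genes 27% were called, and among those with a mean above 5, tested alone, 52.2%. Whether genes with and without the core differed in their response was not tested.

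The values were read as log2 units, 1 for each probe set on each array, so that a difference of 1 is a 2-fold change. Array medians lay between 4.97 and 5.04. Correlations over genes were 0.997 to 0.998 within a group and 0.988 to 0.990 between groups. A gene was called where its adjusted p in limma, two-sided and corrected over all 19938 genes by the Benjamini-Hochberg method, was below 0.05. By this rule 27% of all genes were called, 14.4% higher and 12.6% lower after TKI258, and the groups did not overlap in 40.2%. The median over all probe sets and arrays was 5.0. Of the 7 epithelial markers 0 were dimmer than that in both groups, with Krt8 at 11.92 ± 0.07 (SD, n = 3) with DMSO. All 5 endothelial and 3 lymphocyte markers and 5 of 7 macrophage markers, Ptprc among them, did lie below it. So did 2 of 3 adipocyte markers, but only 1 of 7 fibroblast markers. The mean over the macrophage list was 4.33 to 4.35 in the DMSO arrays and 4.49 to 4.64 in the TKI258 arrays, with Cd68 and Cd14 past the threshold. Over the 7 fibroblast markers it was 5.24 to 5.34 and 5.81 to 5.87, with Pdgfra and Dcn past the threshold. Over the 7 epithelial markers it was 9.16 to 9.29 and 9.41 to 9.54, with Cdh1, Krt19 and Cldn4 higher and Krt18 and Krt7 lower past the threshold. The part of these shifts in the results was not tested.

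After TKI258, 12 of the 44 measured genes were higher and 8 lower, together 45.5% of them beside the 27% of all genes. Their groups did not overlap in 27, 16 higher and 11 lower, beside 21.4% and 18.8% of all genes. Nupr1 and Slc43a2 were at least 2-fold higher and Cth at least 2-fold lower, beside 1.45% and 0.697% of all genes. Bright genes were called more often: of 11236 genes with a mean above 5 that were tested alone, 52.2% passed (27.1% higher and 25.1% lower), and so did 22 of the 34 listed genes among them (64.7%; 13 higher and 9 lower). The median log2 change was -0.027 over 18 ATF4 response genes and -0.044 over 26 carriers, beside 0.015 over all genes. The sign of the first turned without DMSO replicate 2, TKI258 replicate 1 or TKI258 replicate 3 (0.013, 0.002 and 0.007), and the second was -0.006 without TKI258 replicate 3. In the first group 5 rose and 4 fell, and in the second 7 rose and 4 fell. Without DMSO replicate 1 or 2 the first group had 2 genes called higher, and without TKI258 replicate 2 it had 3. By role, 4 of 7 stress regulators rose, enzymes of amino acid synthesis and of transsulfuration fell or did not pass, and carriers went both ways. The mRNA of Atf4 itself did not pass. An array reads RNA pooled over a dish, so a change in all cells and one in some of them cannot be told apart.

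**Figure D1:**
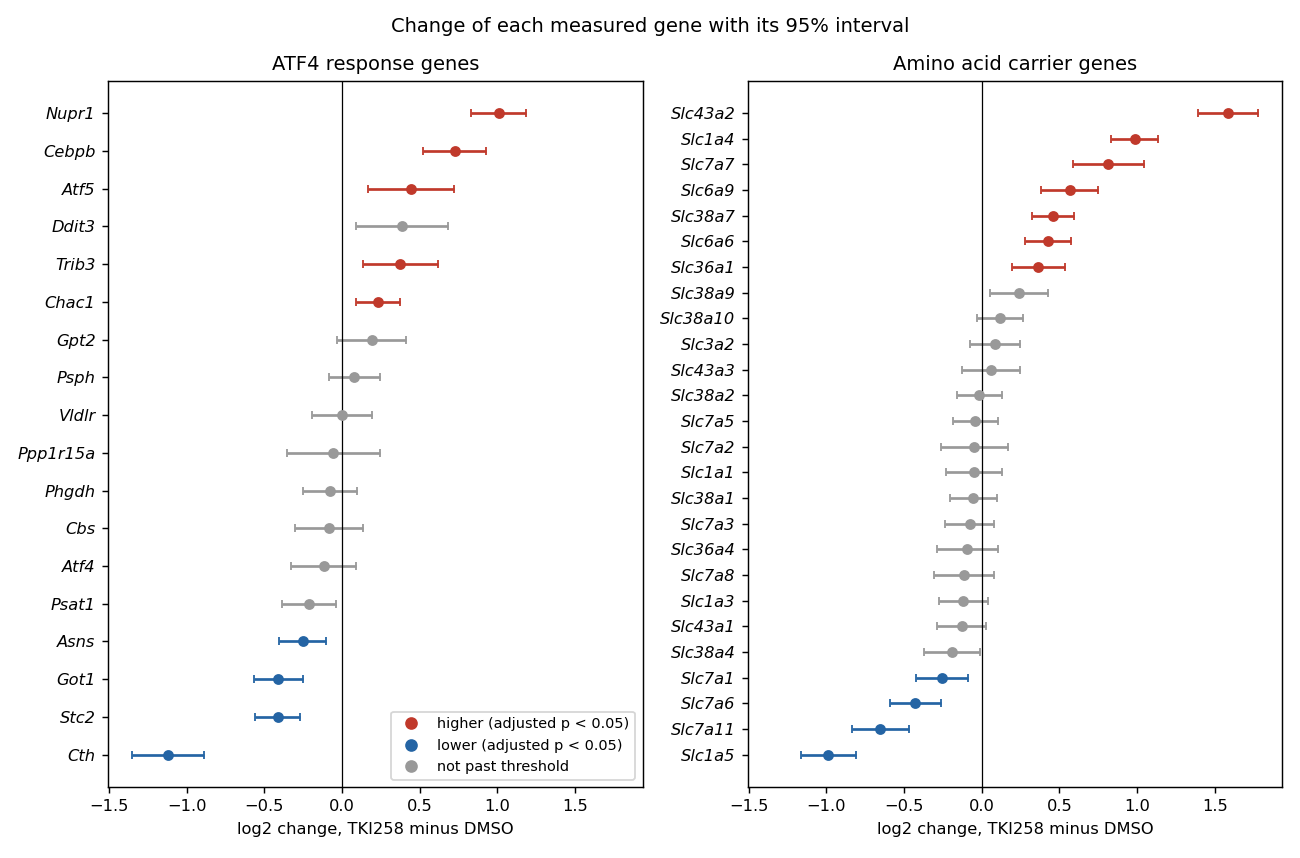
Log2 change of each of the 44 measured genes, TKI258 minus DMSO, with its 95% interval from limma (n = 3 arrays per group). The points run from Cth at -1.12 to Nupr1 at 1.01 among ATF4 response genes, and from Slc1a5 at -0.99 to Slc43a2 at 1.59 among carriers.

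Among the 7 transcription factor and stress regulator genes 4 rose, 0 fell and 3 did not pass, with a median log2 change of 0.39. This share of 57.1% called stands beside 27% of all genes and 52.2% of genes with a mean above 5. Nupr1, a small stress-induced chromatin protein, read 7.74, 7.84 and 7.79 with DMSO and 8.66, 8.87 and 8.87 with TKI258. The groups lay 0.82 apart at their nearest arrays, and the rise was 2.01-fold (log2 change 1.01, SE 0.08, adjusted p = 2.19e-05). Cebpb, a C/EBP factor that can pair with ATF4, read 8.77, 8.74 and 8.87 with DMSO and 9.36, 9.5 and 9.69 with TKI258. This rise of 0.73 (SE 0.09, adjusted p = 0.000322) also came without overlap. Both calls held in every alternative that was run.

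Atf5, a relative of ATF4 that eIF2 phosphorylation likewise controls at translation, read 7.10, 7.09 and 7.25 with DMSO and 7.29, 7.71 and 7.78 with TKI258. The lowest TKI258 array stood 0.04 above the highest DMSO array, and the change was 0.44 (SE 0.12, adjusted p = 0.0243). Without DMSO replicate 1 or 2, or TKI258 replicate 2 or 3, the adjusted p of Atf5 was 0.0753, 0.0766, 0.0806 and 0.0809. Trib3, a pseudokinase that feeds back on ATF4, read 7.29, 7.29 and 7.46 against 7.57, 7.63 and 7.97, a change of 0.38 (SE 0.11, adjusted p = 0.0283). Its adjusted p was 0.0895 and 0.0899 without DMSO replicate 1 and 2. In both genes TKI258 replicate 3 was the highest array.

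Ddit3, which encodes the pro-apoptotic factor CHOP, read 5.80, 5.99 and 5.96 with DMSO and 6.0, 6.35 and 6.57 with TKI258. Its log2 change of 0.39 did not pass (95% interval 0.09 to 0.68, adjusted p = 0.0570), and it did pass without TKI258 replicate 1 (0.54, adjusted p = 0.00423). Atf4 read 8.90, 8.83 and 8.95 with DMSO and 8.64, 8.70 and 8.97 with TKI258. The groups overlapped, and the interval of its change, -0.33 to 0.09, spans 0. Ppp1r15a, the GADD34 subunit that leads a phosphatase back to eIF2, had the widest interval of the list, -0.36 to 0.24. It read 5.79, 6.27 and 6.09 with DMSO and 5.84, 5.93 and 6.21 with TKI258.

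**Figure D2:**
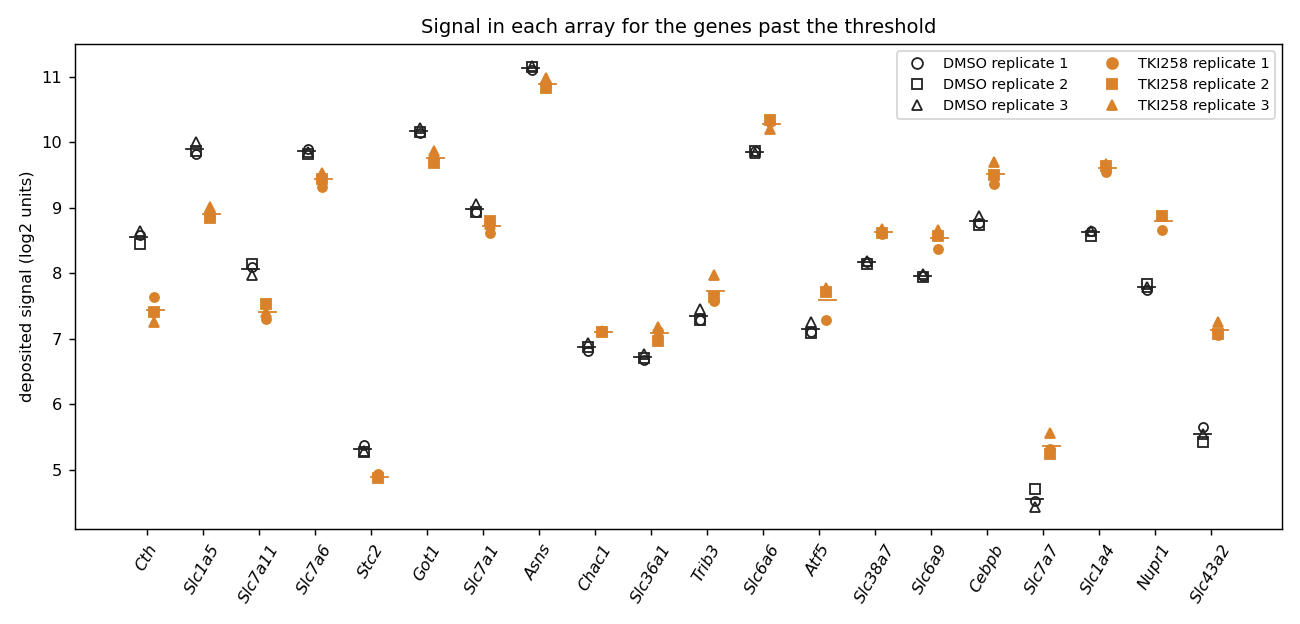
Deposited signal in log2 units for the 20 called genes, from the largest fall on the left to the largest rise on the right. Each array is a point (open black DMSO, filled orange TKI258, shape by replicate number) and short lines are group means; in each of these genes the groups do not overlap, with gaps from 0.04 in Atf5 to 1.40 in Slc43a2.

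Of 6 measured genes for amino acid synthesis and aminotransferases 2 fell and 0 rose. This share of 33.3% called is near the 27% of all genes and below the 52.2% of genes with a mean above 5. Got1, the cytosolic aspartate aminotransferase, read 10.14, 10.16 and 10.22 with DMSO and 9.74, 9.68 and 9.87 with TKI258, a fall by 0.41 (SE 0.07, adjusted p = 0.00209). Asns, asparagine synthetase and a much used reporter of ATF4, read 11.10, 11.14 and 11.16 against 10.85, 10.82 and 10.98. It fell by 0.25 (SE 0.07, adjusted p = 0.0205), with TKI258 replicate 3 the nearest to the controls. The call of Asns was lost without DMSO replicate 1, 2 or 3 (adjusted p = 0.0510, 0.0671 and 0.0720) and without TKI258 replicate 1 or 2 (adjusted p = 0.0564 and 0.0724).

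The 3 enzymes that make serine from a glycolytic intermediate did not pass. Psat1, the aminotransferase of that path, read 11.45, 11.46 and 11.44 with DMSO and 11.14, 11.18 and 11.38 with TKI258. Its change of -0.21 had an adjusted p of 0.0706, and 0.0119 without TKI258 replicate 3, where the change was -0.29. Phgdh, the first enzyme, changed by -0.08 (95% interval -0.25 to 0.10) and Psph, the last, by 0.08 (-0.08 to 0.25). Gpt2, the mitochondrial alanine aminotransferase, changed by 0.19 (-0.03 to 0.41), with TKI258 replicate 3 at 7.27 and the other 2 at 6.94.

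Sulfur amino acid genes differed from one another. Cth, the lyase that releases cysteine in transsulfuration, read 8.58, 8.45 and 8.65 with DMSO and 7.64, 7.41 and 7.26 with TKI258. That fall was 2.17-fold (log2 change -1.12, SE 0.10, adjusted p = 5.55e-05), and the nearest arrays were 0.81 apart. Cbs, which carries out the step before it, changed by -0.08 (95% interval -0.30 to 0.14), with TKI258 arrays at 5.24, 4.90 and 4.92 on both sides of the controls. Chac1, which breaks down glutathione, rose by 0.23 (SE 0.06, adjusted p = 0.0223) from 6.81, 6.88 and 6.93 to 7.11, 7.10 and 7.11.

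The rise of Chac1 was small, and its adjusted p was 0.0588 with arrays centred on their medians and 0.0711 after renewed quantile normalization. It was 0.103, 0.0647 and 0.0550 without DMSO replicate 1, DMSO replicate 2 and TKI258 replicate 2. Of the other response genes, Stc2, a secreted glycoprotein induced by stress, fell by 0.41 (SE 0.06, adjusted p = 0.00111). It read 5.38, 5.27 and 5.29 with DMSO and 4.93, 4.87 and 4.90 with TKI258, where its mean was under the overall probe set median. Vldlr, a lipoprotein receptor gene, lay below that median in both groups, between 3.70 and 4.01.

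**Figure D3:**
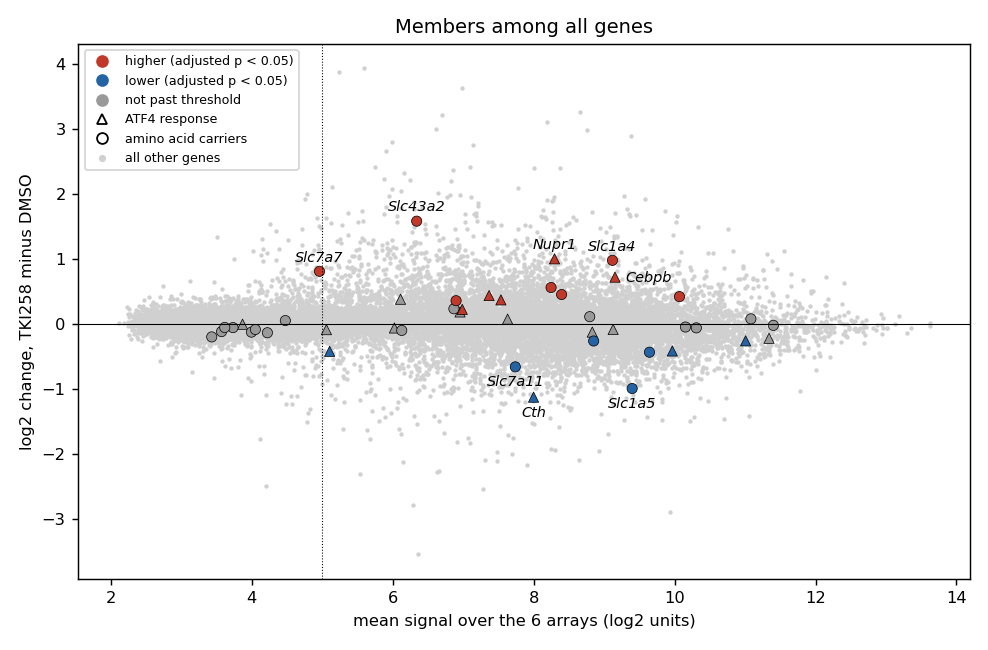
Log2 change, TKI258 minus DMSO, against the mean signal over the 6 arrays for the measured members and for all 19938 genes; the dotted line marks a mean of 5. The members spread to both sides of 0, and the 9 that lie below the median in both groups are near 0, none of them called.

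Carriers that exchange small neutral amino acids in the SLC1 family went opposite ways. Slc1a4, or ASCT1, which carries alanine, serine and cysteine, read 8.65, 8.57 and 8.65 with DMSO and 9.54, 9.64 and 9.66 with TKI258. It rose 1.98-fold (log2 change 0.98, SE 0.07, adjusted p = 1.03e-05). Slc1a5, or ASCT2, a glutamine carrier of many tumour lines, read 9.82, 9.86 and 10.00 with DMSO and 8.86, 8.84 and 9.01 with TKI258. It fell 1.98-fold (log2 change -0.99, SE 0.08, adjusted p = 2.62e-05). In both genes the groups were at least 0.80 apart. The glutamate carriers Slc1a1 and Slc1a3 lay below the median in both groups, at 3.64 to 4.10, and did not pass.

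The SLC7 light chains pair with the heavy chain SLC3A2 at the plasma membrane, and again they differed. Slc7a11, the cystine-glutamate exchanger xCT, read 8.09, 8.14 and 7.97 with DMSO and 7.30, 7.53 and 7.40 with TKI258. It fell by 0.65 (SE 0.08, adjusted p = 0.000322), and its groups were 0.43 apart. Slc7a6, an exchanger of cationic for neutral amino acids (y+LAT2), read 9.90, 9.82 and 9.85 against 9.32, 9.43 and 9.53 and fell by 0.43 (SE 0.07, adjusted p = 0.00190). Slc7a7, its close relative y+LAT1, rose by 0.82 (SE 0.10, adjusted p = 0.000334). It read 4.52, 4.71 and 4.43 with DMSO, under the overall probe set median, and 5.31, 5.24 and 5.56 with TKI258.

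Neither subunit of the leucine carrier LAT1 passed. Slc7a5, its light chain, read 10.15, 10.16 and 10.21 with DMSO and 10.08, 10.14 and 10.19 with TKI258, and the 95% interval of its change was -0.18 to 0.10. Slc3a2, the shared heavy chain, read 11.04, 11 and 11.08 against 11.10, 11.04 and 11.23, with an interval of -0.07 to 0.24. Slc7a8, or LAT2, lay between 3.40 and 3.76. Of the cationic carriers, Slc7a1 (CAT1), which takes up arginine and lysine, read 8.94, 8.94 and 9.06 against 8.62, 8.80 and 8.75. It fell by 0.26 (SE 0.07, adjusted p = 0.0301). That call was lost without DMSO replicate 1, 2 or 3 (adjusted p = 0.0650, 0.0593 and 0.113) or TKI258 replicate 1 (adjusted p = 0.0878). Slc7a2 and Slc7a3 lay below the median in both groups.

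**Figure D4:**
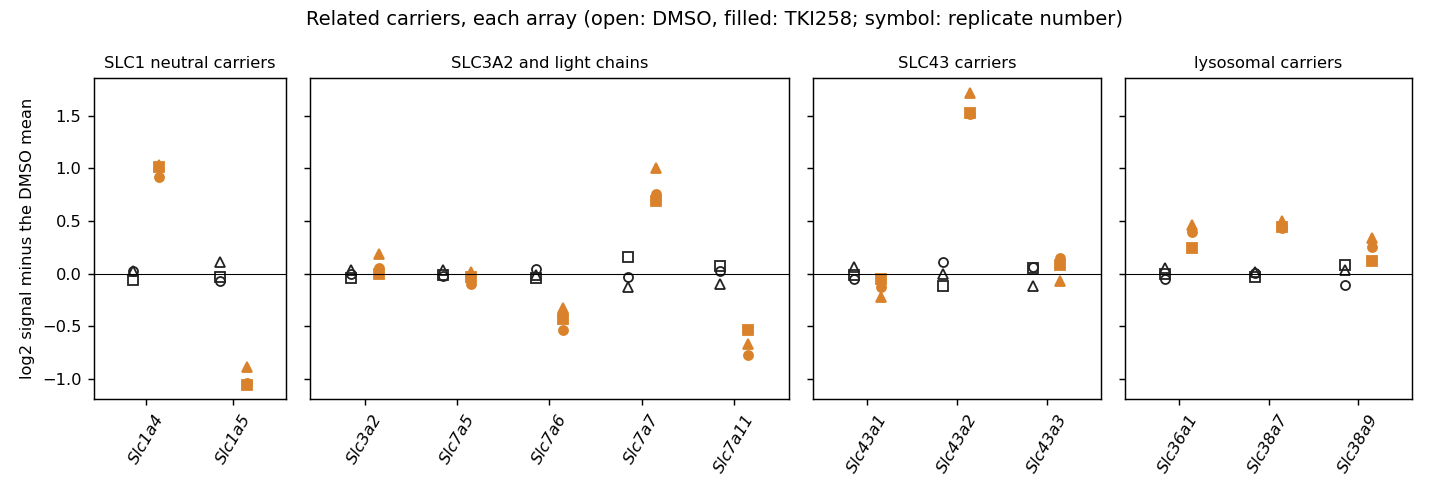
Log2 signal of each array minus the mean of the DMSO arrays, for carriers grouped by family or place (open DMSO, filled TKI258, symbol by replicate number). Slc1a4 and Slc1a5 move to opposite sides by 0.98 and -0.99, Slc7a7 stands against Slc7a6 and Slc7a11, and Slc43a2 rises apart from Slc43a1 and Slc43a3.

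Among the SLC43 carriers the uniporter Slc43a2 (LAT4), for leucine and other large neutral amino acids, had the greatest change of the list. It read 5.66, 5.43 and 5.54 with DMSO and 7.06, 7.07 and 7.26 with TKI258, a 3.01-fold rise (log2 change 1.59, SE 0.09, adjusted p = 3.47e-06). The nearest arrays of the groups were 1.40 apart. Slc43a1 (LAT3), with the same kind of substrates, changed by -0.13 (95% interval -0.29 to 0.03), and Slc43a3, since assigned to nucleobases, by 0.06 (-0.13 to 0.24). Both lay below the median in both groups. Slc6a9, the glycine carrier GLYT1, read 7.96, 7.94 and 7.99 with DMSO and 8.37, 8.56 and 8.66 with TKI258 and rose by 0.57 (SE 0.08, adjusted p = 0.000727). Slc6a6, which carries taurine, read 9.87, 9.86 and 9.84 against 10.31, 10.34 and 10.20 and rose by 0.43 (SE 0.07, adjusted p = 0.00113).

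Of the SLC38 carriers, Slc38a1, Slc38a2, Slc38a4 and Slc38a10 did not pass. Slc38a2 (SNAT2), an ATF4 target that amino acid starvation induces, read 11.46, 11.42 and 11.35 with DMSO and 11.40, 11.44 and 11.35 with TKI258 (95% interval of the change -0.16 to 0.13). Slc38a1 (SNAT1) read 10.39, 10.36 and 10.26 against 10.30, 10.32 and 10.23, with an interval of -0.20 to 0.10. Slc38a4 (SNAT4) lay between 3.28 and 3.66, and Slc38a10 changed by 0.12 (-0.03 to 0.27).

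The members at the lysosomal membrane were not a list of their own. They belong to the SLC38 carriers (1 of 6 called, 16.7%) and to the SLC6, SLC36 and SLC43 carriers (4 of 7, 57.1%). These shares stand beside 27% of all genes and 52.2% of genes with a mean above 5. Slc38a7, which lets glutamine and asparagine out of lysosomes, read 8.17, 8.14 and 8.18 with DMSO and 8.60, 8.61 and 8.67 with TKI258, a rise of 0.46 (SE 0.06, adjusted p = 0.000445). Slc36a1 (PAT1), a proton-coupled carrier of small amino acids, read 6.67, 6.71 and 6.77 against 7.11, 6.96 and 7.18 and rose by 0.36 (SE 0.07, adjusted p = 0.00562). Slc38a9, the arginine sensor that signals to mTORC1, read 6.64, 6.83 and 6.78 with DMSO and 7.0, 6.87 and 7.09 with TKI258. Its change of 0.24 had an adjusted p of 0.0590, and 0.0336 without TKI258 replicate 2. A relative of PAT1, Slc36a4, changed by -0.09 (95% interval -0.29 to 0.10).

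The lysosomal gene regulators TFEB and TFE3 bind an element built on CACGTG. These 6 letters, looked for after the values above were known, were in the windows of 8.09% of all genes and of 5 of the 37 matched members (13.5%). They are shown for the lysosomal carriers that rose.
Slc38a7, chr8:95853508-95853537, gene on the minus strand: gtgattcaggctCACGTGttacttgagtcg
Slc36a1, chr11:55204297-55204326, gene on the plus strand: ggaatggagcggCACGTGacctgggctagg
Slc36a1, chr11:55204325-55204354, gene on the plus strand: gggagccagcatCACGTGacagggcccgga
The match began 34 bases before the start in Slc38a7, and 31 and 3 bases before it in Slc36a1. The window of Slc38a9 did not hold these letters, while those of Nupr1, Cbs and Slc43a1 did. Of these, Nupr1 rose, and Cbs and Slc43a1 did not pass. The letters are the core of the E-box and not a measured binding site. Whether TFEB, TFE3 or any other factor acts on these genes was not tested.

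Other genes of the pathway were read from the same fit, and their counts stand beside 27% of all genes and 52.2% of genes with a mean above 5. Of 14 measured genes for eIF2 kinases, eIF2 factors and their regulators 3 rose and 6 fell (64.3% called). Eif2ak2, the interferon-inducible eIF2 kinase PKR, rose by 0.47 (SE 0.08, adjusted p = 0.00223), from 8.32, 8.37 and 8.08 to 8.72, 8.74 and 8.73. The eIF2 subunit gene Eif2s2 fell by 0.45, and Eif2b3 and Eif2b4, for subunits of the exchange factor eIF2B, by 0.80 and 0.29 (adjusted p = 0.000547, 0.000647 and 0.00605). A further eIF2B gene, Eif2b1, fell by 0.36 (adjusted p = 0.0112). The eIF2B genes Eif2b5 and Eif2b2 did not pass, with changes of -0.21 and -0.10 (adjusted p = 0.0839 and 0.412). Eif2b1, Eif2b5 and Eif2b2 were chosen after their values were seen. Eif2ak4, the kinase GCN2 that senses uncharged transfer RNA, had a change of -0.11 (95% interval -0.29 to 0.07). It was chosen after its value was seen, as were the other called genes of this list. Of those, Eif2ak3 and Impact rose by 0.27 and 0.32 (adjusted p = 0.0166 and 0.00717). Ppp1r15b and Dnajc3 fell by 0.29 and 0.19 (adjusted p = 0.0117 and 0.0475).

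Of 21 other ATF4 targets and partners 8 rose and 6 fell (66.7%), beside 14.4% higher and 12.6% lower among all genes and 27.1% and 25.1% among those with a mean above 5. The mitochondrial folate enzymes Mthfd1l and Shmt2 fell by 0.71 and 0.67 (adjusted p = 0.000104 and 0.000147) and the death receptor gene Tnfrsf10b by 0.55 (adjusted p = 0.000173). Map1lc3b, for an autophagosome protein, rose by 0.78 (adjusted p = 5.03e-05). The other called genes of this list, named with their values known, went both ways. Atf3 and Ddit4 rose by 0.87 and 0.81 (adjusted p = 0.000398 and 0.000248). Pck2, Aldh1l2, Sqstm1, Cebpg and Jdp2 rose by 0.55, 0.54, 0.48, 0.41 and 0.41 (adjusted p = 0.00157, 0.0242, 0.000459, 0.00132 and 0.00456). Aldh1l2 lay below the median in both groups. Mthfd2, Xpot and Eif4ebp1 fell by 0.54, 0.43 and 0.35 (adjusted p = 0.000357, 0.00137 and 0.0153). Of 18 cytosolic aminoacyl-tRNA synthetase genes, which charge transfer RNAs and include many ATF4 targets, 13 fell (72.2%) and 0 rose. Their median log2 change was -0.26, with Cars at -0.46, Hars at -0.42, Mars1 at -0.41 and Farsb at -0.33 (adjusted p = 0.00193, 0.00112, 0.00296 and 0.00262). Without DMSO replicate 1 or without DMSO replicate 3, 7 fell.

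Of 17 other amino acid enzyme genes 5 fell and 0 rose; this share of 29.4% called is near the 27% of all genes. Shmt1, the cytosolic serine hydroxymethyltransferase, fell by 1.05, from 9.10, 9.05 and 9.14 to 8.06, 7.98 and 8.09 (SE 0.06, adjusted p = 6.44e-06). Prodh, which starts proline breakdown, fell by 0.76, Gclc, the catalytic subunit for the first step of glutathione synthesis, by 0.47, and glutamate dehydrogenase gene Glud1 by 0.39 (adjusted p = 0.000137, 0.000415 and 0.00144). Of 31 other amino acid carrier genes, 24 of them below the median in both groups, 3 rose and 0 fell (9.68%). Ctns, the lysosomal cystine exporter, read 7.67, 7.68 and 7.59 with DMSO and 9.07, 9.05 and 9.20 with TKI258, a 2.75-fold rise (log2 change 1.46, SE 0.07, adjusted p = 1.83e-06). Slc7a4 and Slc38a6 rose by 0.52 and 0.39 (adjusted p = 0.00192 and 0.0267). The call of Slc38a6 was lost without DMSO replicate 1 or 2 or TKI258 replicate 2 or 3 (adjusted p = 0.0822, 0.0542, 0.0797 and 0.0851), and without TKI258 replicate 1 the list counted 5 rises.

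Of 35 measured genes that link amino acids to mTORC1 12 rose and 2 fell. These are 40% of the list, above the 27% of all genes and below the 52.2% of genes with a mean above 5, and 2 of the 35 lay below the median in both groups. Sesn3, a sestrin and thus of a family that restrains mTORC1 when leucine is short, read 7.35, 7.35 and 7.25 with DMSO and 9.30, 9.20 and 9.21 with TKI258. Its rise of 1.92 (SE 0.07, adjusted p = 5.98e-07) stood beside 0.98 for its relative Sesn1 (SE 0.08, adjusted p = 3.12e-05). The third sestrin gene, Sesn2, counted among the other ATF4 targets, did not pass (0.06, adjusted p = 0.685). It was chosen with its value known. Castor2, of a family of arginine sensors, rose by 1.00 (SE 0.08, adjusted p = 2.91e-05) and folliculin gene Flcn by 0.48 (SE 0.07, adjusted p = 0.000540). The genes that fell were Rptor by 0.33 and Rheb by 0.23 (adjusted p = 0.0120 and 0.0498), chosen after their values were seen. They code for the substrate-binding subunit and the small GTPase activator of mTORC1. The remaining genes called higher were likewise chosen after their values were seen. Lamtor2, Lamtor4, Rragc and Mtor rose by 0.41, 0.41, 0.29 and 0.29 (adjusted p = 0.00248, 0.00405, 0.00887 and 0.0112). Tsc2, Fnip1, Nprl2 and Tfeb rose by 0.37, 0.30, 0.27 and 0.27 (adjusted p = 0.0079, 0.0194, 0.0204 and 0.0138). This count of 2 lower genes was 0 when DMSO replicate 1 was left out and 5 when TKI258 replicate 3 was, and 1 for each other array.

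**Figure D5:**
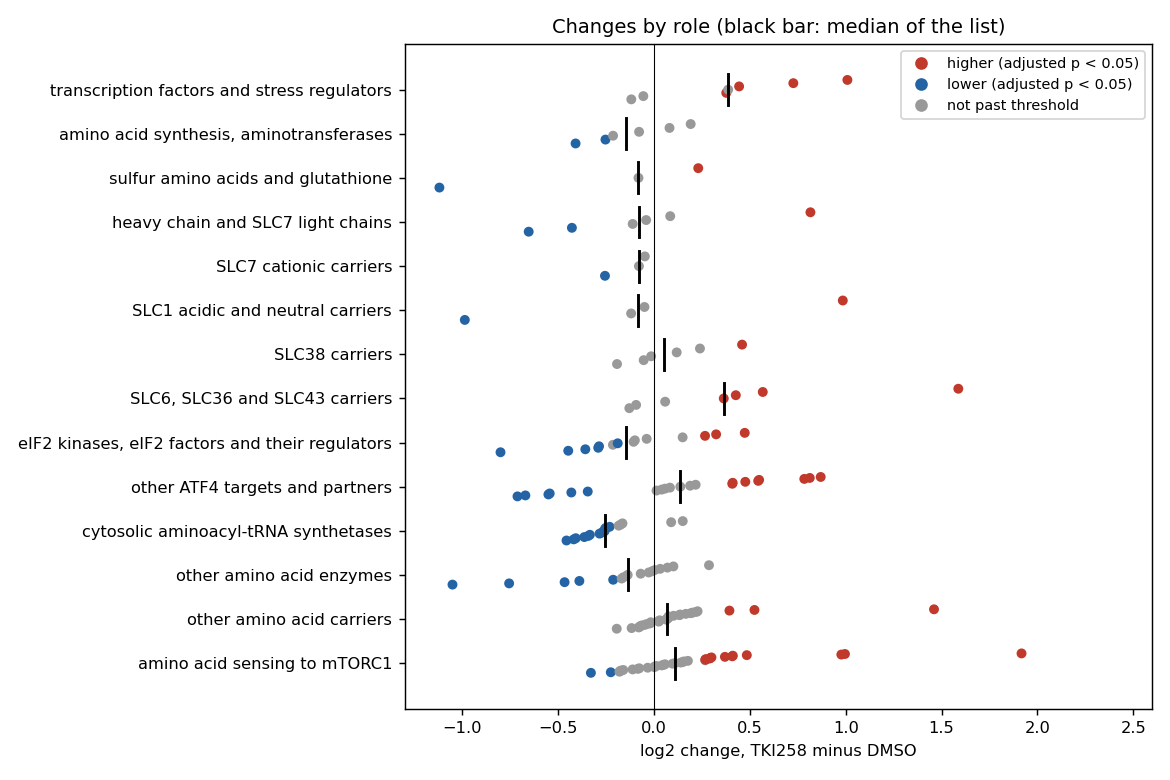
Log2 change, TKI258 minus DMSO, of the measured genes in the members' role groups (upper 8 rows, without Stc2 and Vldlr) and in the other pathway lists (lower 6 rows), coloured by call, with a black bar at each median. Stress regulators lie mostly right of 0 with a median of 0.39, and the aminoacyl-tRNA synthetases mostly left with a median of -0.26.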

How the data were processed

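The 6 arrays were grouped by their titles, 3 per treatment from separate dishes labelled as biological replicates. Per the submitters' processing notes the tools were RMA, affy and limma, with no versions given, and the deposited values were taken as log2 from their range of 1.62 to 13.96. RMA usually sets arrays to a common distribution, which would mask a change common to the whole array. Of 35557 probe sets, 21789 had 1 gene symbol in the platform annotation of 2016 and were used. They gave 19938 genes, each read from the probe set with the highest mean. The 2 treatments were fitted with limma 3.58.1 in R 4.3.3 (lmFit, eBayes, treatment as the only term, no filter), after a check on simulated data. SE and 95% intervals are limma's moderated ones, with n = 3 arrays per group. The number of arrays limits the precision, and without detection calls no gene was called absent. Signals of different probe sets were not compared as levels. The members and lists were chosen with earlier results of these data known. All members are named, with up to 4 genes of smallest adjusted p from each other list; genes outside that rule are marked in the text.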

Additional observations from a re-analysis of the deposited data

Results flagged for a closer look

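Several probe sets were picked out because they carry a signal that the gene comparison did not use; each was tested on its own in limma. A second probe set of Slc38a9 read 5.82, 5.98 and 5.75 with DMSO and 6.30, 6.10 and 6.22 with TKI258, a change of 0.36 (adjusted p = 0.0118 over probe sets with 1 symbol). The brighter one used above gave 0.24 and did not pass. A pair of probe sets annotated to both Ass1, argininosuccinate synthase, and Gm5424 gave 1.63 and 1.64 (adjusted p = 0.00143 and 0.00151 over all probe sets). The first read 6.85, 6.75 and 6.83 with DMSO and 8.08, 8.62 and 8.64 with TKI258. The 3 probe sets annotated to Ahcy, which splits S-adenosylhomocysteine, and to Gm4737 changed by -0.48, -0.52 and -0.52 (adjusted p = 0.00488, 0.00324 and 0.00320). Of the other probe sets with several symbols, that of Phgdh and Gm6756 changed by -0.03 and that of Aars and Exosc6 by 0.05 (adjusted p = 0.818 and 0.725). Probes shared by such pairs cannot be assigned to either gene, and probe sets of a pair may read the same transcript.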

How the results depend on the processing

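Of the 20 called members 15 kept their call and direction in every alternative run for them, and the calls of Atf5, Trib3, Asns, Chac1 and Slc7a1 were lost in at least 1. Of the 24 others 6 passed in at least 1 (Ddit3, Psat1, Slc38a9, Slc1a3, Slc38a4 and Slc43a1), and 0 called members reversed. With 1 array left out, ATF4 response genes called higher numbered 2 to 6 in place of 5, 2 without DMSO replicate 1 or 2 and 3 without TKI258 replicate 2. The other counts were 7 to 13 aminoacyl-tRNA synthetases lower, 0 to 5 mTORC1 genes lower, 0 to 1 other enzymes higher and 2 to 5 other carriers higher. Centring arrays on their medians over genes, chosen after seeing the data, moved the median change of all genes from 0.015 to -0.092 and the calls from 2866 higher and 2519 lower to 1970 and 4300. It left 2 ATF4 response genes higher, made 7 carriers lower in place of 4 (7 higher as before) and 7 mTORC1 genes higher and 5 lower, with medians of -0.133 (ATF4 response) and -0.151 (carriers). At an adjusted p of 0.01, 2 ATF4 response genes were higher, and 3 eIF2 genes, 6 synthetases and 0 mTORC1 genes lower. The carriers' median was 0.085 over genes of a mean above 5 alone and 0.004 after quantile normalization. Without 1 array the medians were -0.061 to 0.013 (ATF4 response) and -0.039 to -0.006 (carriers). Other enzymes called higher were 1 with the replicate block, quantile normalization, the mean of probe sets, the mean above 5, and eBayes with trend and robust. Synthetases called higher were 1 under quantile normalization, the mean above 5, and trend and robust, and mTORC1 genes called lower were 1 under quantile normalization. The titles name separate biological replicates and no pairs, so the numbers were not taken as pairs. The deviations of same-numbered arrays from their group means correlated at 0.018, 0.050 and 0.151. Those of differently numbered arrays correlated at -0.113 to 0.073, so these values do not settle whether the dishes were paired. With the replicate block 2877 genes were higher and 2487 lower, and Ddit3 passed (adjusted p = 0.0221). The brightness of a probe set limits the dim carriers: 9 members lay below the median in both groups.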
